A study of Sus scrofa with 6 samples.

Results

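The insulin-like growth factor (IGF) system was followed here in porcine embryonic fibroblasts (PEFs) and in the porcine induced pluripotent stem cells (piPSCs) derived from them, through 10 genes: the ligand gene IGF1, the receptor genes IGF1R, IGF2R and INSR, and the binding protein genes IGFBP2, IGFBP3, IGFBP4, IGFBP5, IGFBP6 and IGFBP7. They were taken by gene symbol from the deposited table, which lists 18007 genes, and each of the 10 has 1 row. PEFs were grown from ear tips of embryos at day 90 of a cross of a Large White boar with a Meishan sow. Lines PEF5, PEF7 and PEF8 gave 1 library each. piPSC5, piPSC7 and piPSC8 came from PEF5, PEF7 and PEF8 in that order, through lentiviral Oct4, Sox2, Klf4 and cMyc under doxycycline control, and gave 1 library each. The piPSCs still depended on doxycycline and were kept on mouse feeder cells, whose fragments cannot be told apart in a table of values per gene. Since each line has a single library, the p-values rest on the spread between the 3 lines within groups, and no spread within a line was measured.

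The libraries held between 11010629 and 17836510 fragments, with each PEF library above its piPSC partner. Fibroblast markers were present as labelled, since the summed FPKM (fragments per kilobase of gene and per 1000000 fragments) of 10 such genes ran from 4492 to 6456 in PEFs and from 131 to 223 in piPSCs. RNA of the listed pluripotency markers was largely missing from the piPSCs. The sum over 8 listed genes was 5.57, 2.98 and 9.18 FPKM in piPSC5, piPSC7 and piPSC8, against at most 0.207 in PEFs. It came mostly from SOX2 and LIN28B, in unlike parts by line. SOX2 had 3.01, 2.49 and 0.129 FPKM in piPSC5, piPSC7 and piPSC8, and LIN28B had 2.51, 0.281 and 8.90. NANOG, SALL4, ESRRB, EPCAM and CDH1 had at most 0.113 FPKM in any piPSC library, and POU5F1, LIN28A and DPPA4 were not analysed here. The name piPSC is therefore used as a label. The study itself reports positive alkaline phosphatase and Oct4 staining of these piPSCs, and describes their reprogramming as incomplete. Listed markers of other cell types had at most 7.88 FPKM (COMP in PEF7), apart from CD14, at 9.20 to 21.9 FPKM in PEFs, and DES, at 14.2 FPKM in piPSC7. The lines also differed in Y-linked genes. The study describes all 3 lines as male, but 4 such genes summed to 39.9 FPKM in PEF8 and 60.8 in piPSC8, and to at most 0.014 in the libraries of lines 5 and 7. The tests were therefore repeated with both libraries of each line left out in turn.

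IGF1 and IGF2 are secreted growth factors that act through the IGF1 receptor, a tyrosine kinase closely related to the insulin receptor encoded by INSR. The IGF2 receptor, also the cation-independent mannose 6-phosphate receptor, takes up IGF2 and carries acid hydrolases to lysosomes, and is not a kinase. IGF-binding proteins hold the ligands outside the cell, where they can block or prolong their action until proteases release them, and several are abundant products of cultured fibroblasts.

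The genes lie on 7 chromosomes of Sscrofa11.1. IGFBP2 (chr15:118822009-118852036, plus strand) and IGFBP5 (chr15:118857471-118878593, minus strand) are neighbours that are transcribed towards each other, with 5434 bases between their ends. The RefSeq models range from 4 exons, in IGF1, IGFBP2, IGFBP4, IGFBP5 and IGFBP6, to 48 in IGF2R. The 250 bases before the gene start are printed for IGFBP2 and IGFBP5, the binding protein genes with the highest PEF levels, for IGF2R, whose level was similar in both groups, and for IGFBP3, which parted from the other binding proteins. All are 5′ to 3′ on the gene's strand. Capitals mark GGGCGG, the GC box core read by Sp1-type factors, on either strand (CCGCCC on the other strand), and the TATA-like runs TTTAAA and TATATA.

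IGF2R, Sscrofa11.1 chr1:7472549-7472798, minus strand: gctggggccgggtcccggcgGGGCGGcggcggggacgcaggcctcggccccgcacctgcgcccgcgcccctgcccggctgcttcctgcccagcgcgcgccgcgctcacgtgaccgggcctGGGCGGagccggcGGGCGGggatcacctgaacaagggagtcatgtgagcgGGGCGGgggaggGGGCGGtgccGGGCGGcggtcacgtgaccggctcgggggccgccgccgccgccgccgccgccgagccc
IGFBP2, Sscrofa11.1 chr15:118821759-118822008, plus strand: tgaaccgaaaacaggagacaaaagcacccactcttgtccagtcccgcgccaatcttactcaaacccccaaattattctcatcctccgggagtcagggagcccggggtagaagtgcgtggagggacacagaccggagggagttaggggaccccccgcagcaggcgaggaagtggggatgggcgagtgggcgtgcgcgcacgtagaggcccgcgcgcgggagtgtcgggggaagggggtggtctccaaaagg
IGFBP5, Sscrofa11.1 chr15:118878594-118878843, minus strand: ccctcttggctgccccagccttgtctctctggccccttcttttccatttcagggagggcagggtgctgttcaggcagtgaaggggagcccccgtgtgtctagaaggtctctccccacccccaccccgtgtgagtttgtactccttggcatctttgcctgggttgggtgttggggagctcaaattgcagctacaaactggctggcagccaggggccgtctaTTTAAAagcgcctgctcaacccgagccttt
IGFBP3, Sscrofa11.1 chr18:50002671-50002920, plus strand: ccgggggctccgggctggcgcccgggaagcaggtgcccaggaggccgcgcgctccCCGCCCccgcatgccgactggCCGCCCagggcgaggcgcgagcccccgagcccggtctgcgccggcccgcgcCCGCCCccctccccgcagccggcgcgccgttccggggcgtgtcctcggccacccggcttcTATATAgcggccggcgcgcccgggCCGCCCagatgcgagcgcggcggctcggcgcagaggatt

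GGGCGG occurs on either strand in 44.3% of the 17993 windows read before the gene starts of the table. It was found 6 times before IGF2R, 4 times before INSR, where some matches overlap, and 2 times each before IGF1R and IGFBP7. The windows of IGF1, IGFBP2, IGFBP4, IGFBP5 and IGFBP6 hold none. TTTAAA, which 11.6% of windows hold, begins 30 bases before the IGFBP5 start, and 108 bases before that of IGF1. For IGFBP3 the window before the RefSeq start is shown, because the model in the table begins 2820 bases further upstream. It holds 4 GGGCGG matches and TATATA, a run found in 3.5% of windows, 63 bases before the start. The IGFBP3 window before the table start held neither, at 56.8% GC, and the shares of windows are for table starts only. Table starts also lie upstream of RefSeq starts for other members, among them IGF1R, IGFBP4 and IGFBP5, whose windows are those of the table. The GC content of the windows was 83.6% for IGF2R, 82.0% for IGFBP3 before the RefSeq start, 79.2% for INSR, 72.4% for IGFBP7 and 72.0% for IGF1R. It was 63.2% for IGFBP2, 59.2% for IGFBP6, 58.8% for IGFBP5, 53.6% for IGFBP4 and 42.0% for IGF1. The window of IGFBP6 lies within a RefSeq exon and that of IGF1 overlaps one by 25 bases, so these do not show a start site. None of the members' windows held TGANTCA, the letters read by AP-1, which 5.03% of all windows hold on either strand. Nor did any hold GGAATG, read by TEAD factors (10.1% of windows), or the RUNX letters TGTGGT (11.7%). At these shares few matches are expected in so small a set, and binding of these factors was not tested.

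Of the 10 genes, 6 were lower in piPSCs and none was higher, against 16.7% of 12428 tested genes called lower and 20.2% called higher. A call means an adjusted p under 0.05 (limma on log2(FPKM + 1), Benjamini-Hochberg over all tested genes) and at least a 2-fold change. The 6 were IGF1, IGFBP2, IGFBP4, IGFBP5, IGFBP6 and IGFBP7, and the 3 receptor genes and IGFBP3 were not called. In the same 6, all piPSC values lay below all PEF values, which held for 26.8% of tested genes (the opposite held for 37.3% of them and for no member). In every line the ratio of (FPKM + 1) was at least 2-fold lower for the same 6, which held for 11.9% of tested genes. All 10 passed the minimum mean of 0.5 FPKM, IGF1 only through its PEF values. The median log2 fold change was -2.36 over the 10 genes, or -2.65 with IGF1 at its bound, and -4.52 over the 6 binding protein genes, beside 0.20 over all tested genes. Rescaling the libraries moved that last median to -0.01 (median ratio) or -0.07 (equal sums). Without line 8 the same 6 genes were called lower by limma, with log2 fold changes between -5.96 (IGFBP2) and -1.86 (IGFBP7) and the highest adjusted p, 0.0499, for IGFBP6. Without line 5 or line 7 the count was 5, and the receptor genes and IGFBP3 were not called without any line. The count of 6 lower and 0 higher genes held under both rescalings, whereas the calls over all genes went from 2505 higher and 2070 lower to 1879 higher and 2511 lower under the median ratio.

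**Figure D1:**
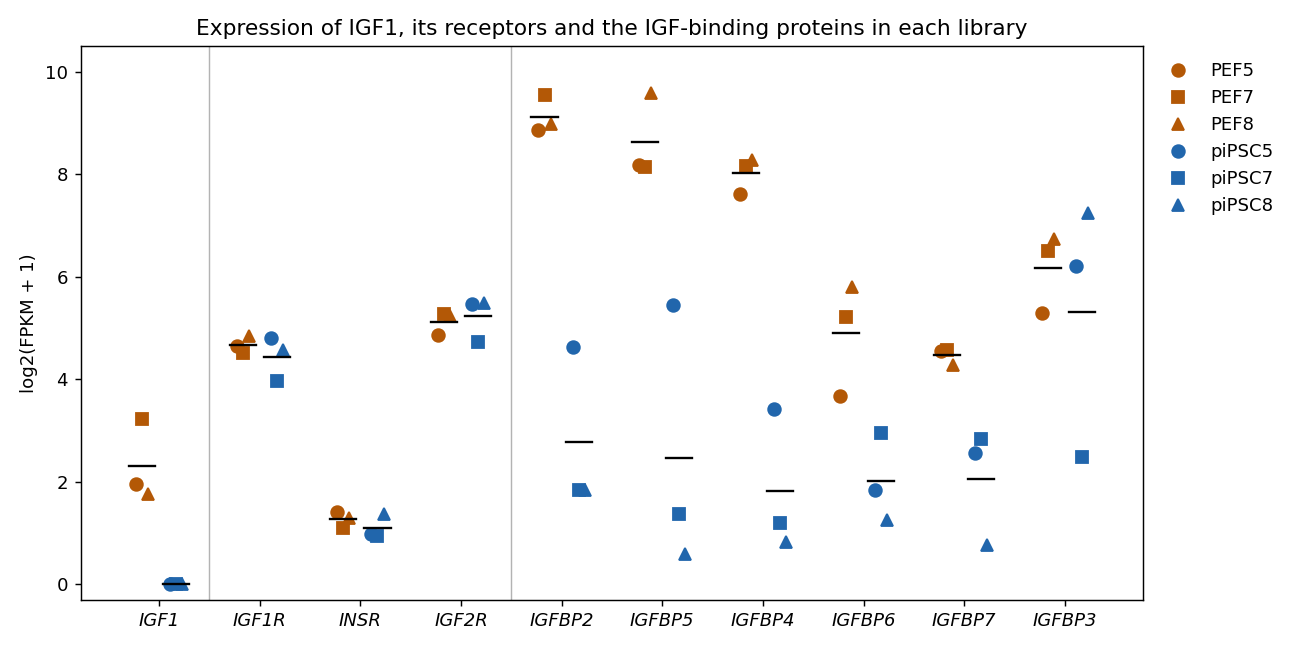
Level of the 10 genes as log2(FPKM + 1), with 1 point per library, shaped by line (5, 7, 8) and coloured by group (PEF, piPSC), and a black bar at each group's mean. The receptor genes overlap between the groups, IGFBP3 splits by line, and IGF1 and the other binding protein genes lie lower in every piPSC library.

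IGF1, the growth factor made mainly by liver and by mesenchymal cells, was the one ligand gene of the set. IGF1 (ENSSSCG00000000857, chr5:81776422-81848048) had 2.89, 8.36 and 2.39 FPKM in PEF5, PEF7 and PEF8, from 213, 578 and 150 fragments. No fragment was counted in any piPSC library. With a limit of 3 fragments allowed by a count of 0 in each library, its mean was at least 77.9-fold lower in piPSCs, or at least 45.3-fold without PEF7, the library that was highest. The limit covers counting error only. The fitted change was -2.32 on the log2 scale (limma adjusted p = 0.00423, SE 0.41), a value that depends on the pseudocount. With every piPSC value at 0, this p-value draws on the PEF spread and on the spread that limma shares across genes. IGF2 and INS were not analysed here.

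The receptor genes were expressed in both groups, and none of them passed the test. IGF1R (ENSSSCG00000030560, chr1:137387825-137692307), the receptor that carries the growth signal, had 24.2, 22.0 and 27.9 FPKM in PEFs and 26.7, 14.6 and 22.7 in piPSC5, piPSC7 and piPSC8. The groups overlapped, and piPSC7 was the lowest library. The fitted difference for IGF1R was -0.24 on the log2 scale (limma adjusted p = 0.44, SE 0.24), which did not pass the test. Without rescaling, the 95% interval from -0.82 to 0.35 leaves out a 2-fold change of (FPKM + 1) in either direction. Rescaling moved the difference to -0.49 under the median ratio and to -0.56 under equal sums. No interval is given for these, so the 2-fold limit covers the values as deposited only.

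IGF2R (ENSSSCG00000004044, chr1:7368103-7472548), the uptake receptor for IGF2, had 28.3, 37.4 and 36.8 FPKM in PEFs and 43.3, 25.6 and 43.5 in piPSCs. Again piPSC7 was the lowest of the 6 libraries, while piPSC5 and piPSC8 were above all PEFs. The fitted log2 difference was 0.10 (limma adjusted p = 0.744, SE 0.25, 95% interval -0.49 to 0.69), and its sign turned with the scaling, to -0.16 under the median ratio and -0.22 under equal sums.

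INSR (ENSSSCG00000013566, chr2:71797125-71936215), the insulin receptor gene, was the weakest receptor. It had 1.65, 1.14 and 1.45 FPKM in PEFs and 0.963, 0.929 and 1.60 in piPSCs, from 64 to 171 fragments per library. Its log2 difference of (FPKM + 1) was -0.17 (limma adjusted p = 0.574, SE 0.23, 95% interval -0.72 to 0.39). At this low level the value and its interval depend on the pseudocount. The difference was -0.28 with a pseudocount of 0.1 and -0.61 under voom, and INSR was not called in either.

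Per length, the order of the receptors was the same in every library, with IGF2R above IGF1R and IGF1R above INSR. The IGF2R level was 1.17 to 1.70 times that of IGF1R in PEFs and 1.62 to 1.92 times in piPSCs. In piPSCs the ranges of IGF2R and IGF1R overlapped across lines, and in PEFs they did not, although the lowest IGF2R value of 28.3 FPKM was close to the highest IGF1R value of 27.9. IGF1R was 14.6, 19.3 and 19.3 times INSR in PEFs and 27.8, 15.7 and 14.2 times in piPSCs. The log2 ratios differed between the groups by 0.35 for IGF2R to IGF1R (exact permutation p = 0.2), by 0.41 for IGF2R to INSR (exact permutation p = 0.4) and by -0.06 for INSR to IGF1R (exact permutation p = 0.9). These are two-sided tests of 3 ratios and 3 lines against 3 cannot give a p below 0.1, so no adjusted value could pass. The sign of the last difference turned to 0.07 without PEF5, to 0.24 without piPSC5 and to 0.37 without line 5, and that of IGF2R to INSR turned to -0.079 without line 5.

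The binding protein genes spanned the widest range. IGFBP2 (ENSSSCG00000035392), a binding protein with an integrin-binding motif that is typical of fetal tissue, had 461, 742 and 504 FPKM in PEF5, PEF7 and PEF8 and 23.8, 2.57 and 2.60 in the matching piPSCs. The groups were far apart, and piPSC5 kept the highest piPSC level. By mean FPKM it ranked 72 of 18007 genes in PEFs and 5115 in piPSCs. The decrease on the log2 scale was -6.35 (limma adjusted p = 0.00107, SE 0.75).

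IGFBP4 (ENSSSCG00000017472, chr12:21962639-21980945), known as an inhibitor of IGF action that the protease PAPP-A cleaves, had 194, 284 and 310 FPKM in PEFs and 9.66, 1.28 and 0.780 in piPSCs. Here too piPSC5 stood above piPSC7 and piPSC8 without reaching the PEFs. On the log2 scale IGFBP4 changed by -6.20 (limma adjusted p = 0.000787, SE 0.66), and its rank by mean FPKM went from 169 to 8062.

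IGFBP5 (ENSSSCG00000025924), which binds the extracellular matrix, had 290, 281 and 762 FPKM in PEFs and 42.7, 1.58 and 0.505 in piPSCs. The highest PEF library and the lowest piPSC library were those of line 8, so the lines differed more than for IGFBP2. As log2 ratios of (FPKM + 1), the decrease was -2.74 in line 5, -6.77 in line 7 and -8.99 in line 8. Over all lines it was -6.17 (limma adjusted p = 0.00693, SE 1.23), but with line 7 left out (both libraries) it was -5.86 with a limma adjusted p of 0.0584. Among the 12428 tested genes, its SD of log2(FPKM + 1) over the piPSC lines, 2.61, ranked 34.

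IGFBP6 and IGFBP7 were lower too, from lower PEF levels. IGFBP6 (ENSSSCG00000000261, chr5:18353171-18357225), which prefers IGF2 over IGF1, had 11.8, 35.9 and 54.8 FPKM in PEFs and 2.56, 6.77 and 1.37 in piPSCs. Its highest piPSC value was in piPSC7, as for IGFBP7, and not in piPSC5. The change was -2.88 on the log2 scale (limma adjusted p = 0.0105, SE 0.64), and 18 to 96 fragments stood behind the piPSC values.

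IGFBP7 (ENSSSCG00000008913, chr8:56279895-56357881), a secreted relative with low affinity for IGFs, had 22.4, 22.8 and 18.4 FPKM in PEFs and 4.92, 6.13 and 0.706 in piPSCs. The PEF values were close together, and piPSC8 was far below the other piPSCs. The decrease was -2.41 as a log2 fold change (limma adjusted p = 0.00986, SE 0.53), and with line 5 left out it was -2.63 with a limma adjusted p of 0.0657.

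IGFBP3, the main carrier of IGFs in serum and a product of many mesenchymal cells, did not follow the rest. IGFBP3 (ENSSSCG00000038783, chr18:50000101-50035762) had 38.1, 89.5 and 106 FPKM in PEFs and 72.7, 4.58 and 150 in piPSC5, piPSC7 and piPSC8. The group means, 77.8 ± 35.3 and 75.7 ± 72.7 FPKM (SD, n = 3), were close, while the lines went opposite ways. The log2 ratio of (FPKM + 1) was 0.91 in line 5, 0.50 in line 8 and -4.02 in line 7, with 1 library on each side and so no test of the lines. The fitted log2 difference was -0.87 (limma adjusted p = 0.56, SE 1.18). Its 95% interval from -3.69 to 1.96 holds large changes of either sign, and without piPSC7 the value was 0.55. With line 5, 7 or 8 left out it was -1.76, 0.71 or -1.55. The gene model overlaps that of IGFBP1 on the other strand by 22699 bases. The RefSeq gene of IGFBP3 (chr18:50002921-50009425) lies within that overlap. Whether counting used the strand, and how shared fragments were treated, is not given in the sources used here. IGFBP1 itself had at most 0.193 FPKM in any library. An effect of the overlap on the IGFBP3 values was not tested.

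**Figure D2:**
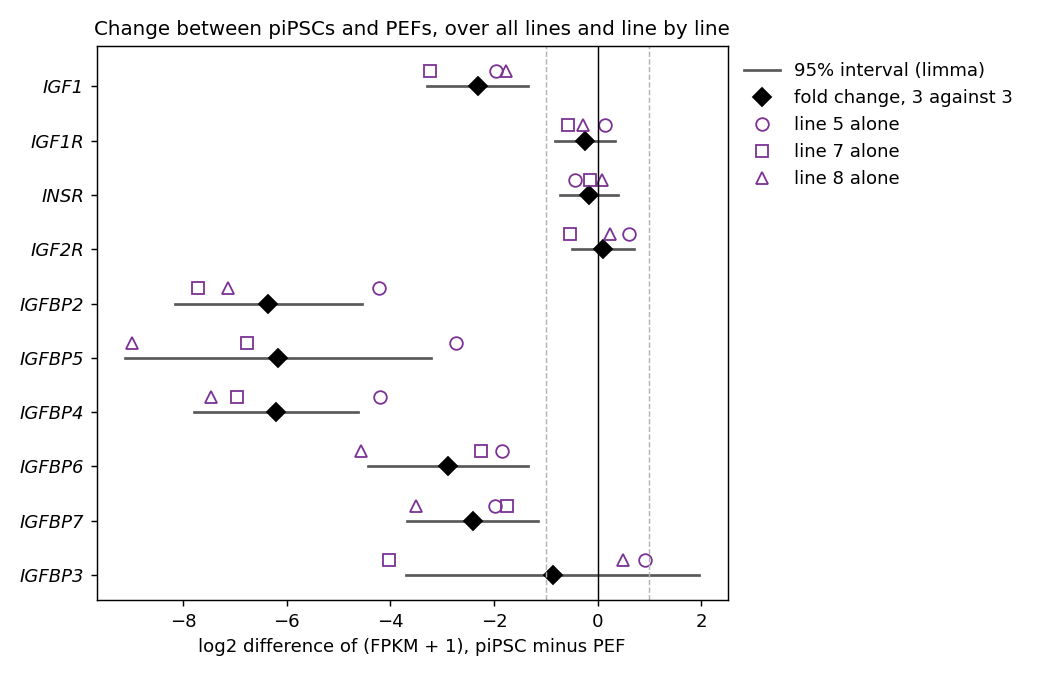
Log2 difference of (FPKM + 1) of piPSCs against PEFs for each of the 10 genes with its 95% interval from limma, and the log2 ratio of (FPKM + 1) of each line as open symbols, with dashed lines at 2-fold. The 6 called genes have intervals below 0, the receptor genes lie near 0, and the IGFBP3 ratios run from -4.02 in line 7 to 0.91 in line 5.

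By mean PEF level per length, the binding protein genes ran from IGFBP2 (569 ± 151 FPKM, SD, n = 3) through IGFBP5 (445 ± 275), IGFBP4 (263 ± 60.9), IGFBP3 (77.8 ± 35.3) and IGFBP6 (34.2 ± 21.6) to IGFBP7 (21.2 ± 2.43). IGFBP4 and IGFBP3 were the one pair of neighbours in this order whose values did not overlap across lines. In piPSCs the order was IGFBP3 (75.7 ± 72.7), IGFBP5 (14.9 ± 24.1), IGFBP2 (9.67 ± 12.3), IGFBP7 (3.92 ± 2.85), IGFBP4 (3.91 ± 4.99) and IGFBP6 (3.57 ± 2.83), and all neighbours overlapped.

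The 6 binding protein genes together summed to 1018, 1455 and 1755 FPKM in PEFs and to 156, 22.9 and 156 in piPSC5, piPSC7 and piPSC8. The sums did not overlap and their geometric mean was 16.7-fold lower in piPSCs (two-sided exact permutation p = 0.1, the smallest that 3 lines against 3 allow). The log2 difference was -4.06, and -3.14 without piPSC7. Without IGFBP3, a sum added after the values were seen, they were 979, 1366 and 1650 FPKM against 83.7, 18.3 and 5.96, or 62.3-fold lower (exact permutation p = 0.1). The log2 difference of that sum was -5.96, or -6.96 without piPSC5 and -5.05 without piPSC8, and -7.17 without line 5 and -4.88 without line 8. Thus most of what the piPSC8 sum held was IGFBP3.

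The mixture of binding protein transcripts differed accordingly. IGFBP2 led in PEF5 and PEF7, with 45.3% and 51.0% of the summed FPKM, and IGFBP5 led in PEF8 with 43.4%. IGFBP3 made up 3.74%, 6.15% and 6.02% in PEFs, against 46.5% in piPSC5 and 96.2% in piPSC8. In piPSC7 its share lay between those of the PEFs and of piPSC5, and IGFBP6 and IGFBP7 led, with 29.5% and 26.8%. These shares add up to 100% within a library, so a rise in the IGFBP3 share goes with the fall of the others. Set against the summed FPKM of the 3 receptor genes, also after the values were seen, the binding protein sum was 18.8, 24.1 and 26.5 times as high in PEFs and at most 2.30 times in piPSCs, with 0.558 in piPSC7.

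**Figure D3:**
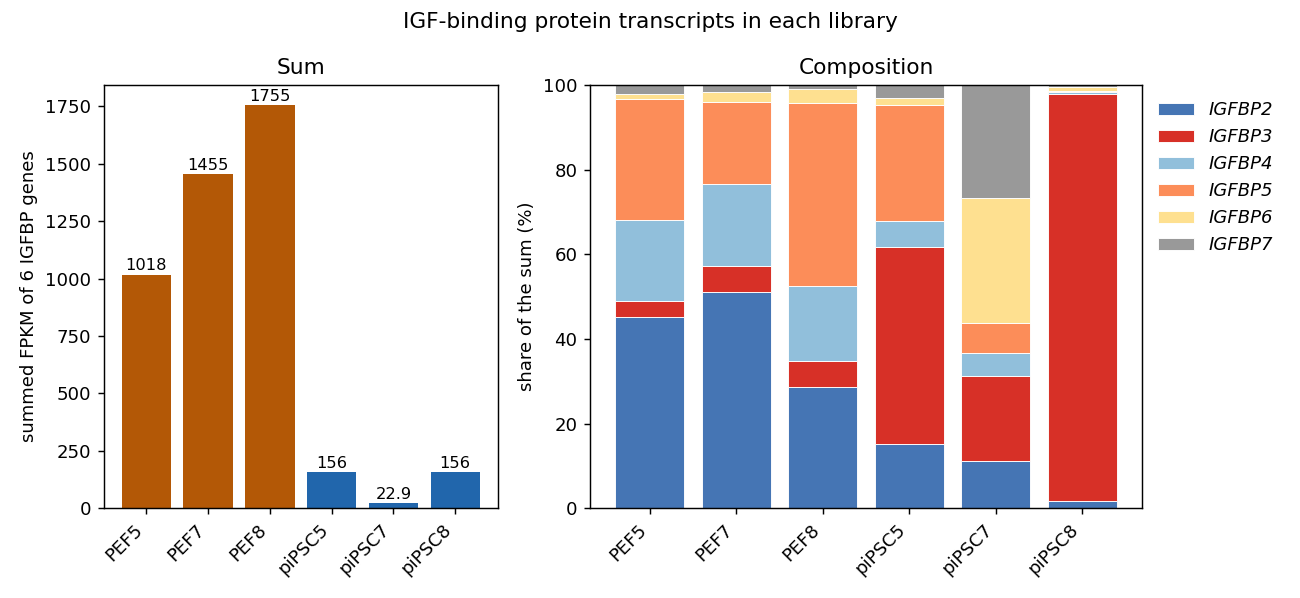
Summed FPKM of the 6 binding protein genes in each library and the percent of that sum from each gene. The sum falls from between 1018 and 1755 FPKM in PEFs to at most 156 in piPSCs, and IGFBP3 holds 96.2% of it in piPSC8.

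The binding protein genes other than IGFBP3 fell together with the fibroblast markers. All 10 markers were called lower, with a median log2 fold change of -5.59. Among the piPSC libraries, 8 of the 10 markers were highest in piPSC5, as were IGFBP2, IGFBP4 and IGFBP5. The other 2, FBN1 and COL3A1, were highest in piPSC8, as was IGFBP3. IGFBP6 and IGFBP7 were highest in piPSC7, where no marker was. COL1A1, the main chain of type I collagen, had 58.4, 4.01 and 2.27 FPKM in piPSC5, piPSC7 and piPSC8, and FBN1, the microfibril protein fibrillin, had 21.4 FPKM in piPSC8 against 4.61 and 2.43 in piPSC5 and piPSC7. In bulk RNA, fewer fibroblasts left in a culture and less RNA per cell cannot be told apart, and the part of remaining fibroblasts in these values was not tested.

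Genes that process IGF ligands or release them from binding proteins were mostly lower as well. Of 13 listed genes 11 were tested, 9 were called lower and none higher, beside 16.7% and 20.2% of all tested genes, with a median log2 fold change of -3.46. MMP2, a gelatinase that also cleaves binding proteins, went from 1425, 2284 and 1245 FPKM in PEFs to 38.1, 15.7 and 1.02 in piPSCs (log2 fold change -7.18). PAPPA, which encodes the protease PAPP-A, went from 9.58, 6.79 and 27.1 to 0.478, 0.0263 and 0.156 (-3.46). STC1, an inhibitor of that protease, was lower too, at -6.26. Among the others, HTRA1, a secreted serine protease, had -5.82, LRP1, a scavenger receptor that binds IGFBP3, had -4.24 and ADAM12, a membrane metalloprotease, had -3.62. The limma adjusted p values of these 6 lay between 7.7e-05 and 0.00197. FURIN, CTSD and PCSK5 were the other lower genes. PCSK5, at -1.52, lost its call under most of the fits that left out a library or line. Its call was also lost under quantile normalization, with no filter on low values, and with a pseudocount of 0.1, where its limma adjusted p was 0.0591.

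STC2 and PCSK6 were not called. STC2, the paralogue of STC1, had 19.8, 20.8 and 14.0 FPKM in PEFs and 8.37, 3.21 and 26.9 in piPSCs, and PCSK6, a proprotein convertase, had 5.76, 15.2 and 6.50 against 1.91, 0.277 and 26.9. For both, piPSC7 was the lowest library and piPSC8 the highest, the same extremes as for IGFBP3. Without piPSC8 both were called lower, with log2 fold changes of -1.59 and -2.28 (limma adjusted p = 0.0197 and 0.0167).

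At the receptor, adaptors and negative regulators went either way. Of 16 tested genes 2 were higher, 2 lower and 12 not called, beside 20.2%, 16.7% and 63.2% of all tested genes, and the median log2 fold change was -0.03. GRB14, an adaptor that binds the active insulin receptor and inhibits its kinase, had 0 fragments in every PEF library and 19.6, 24.4 and 12.5 FPKM in piPSCs. Its mean was at least 260-fold higher in piPSCs (at least 222-fold without piPSC7), with a limit of 3 fragments per PEF library. SHC1, which links receptors to the Ras pathway, had 65.6, 53.2 and 59.9 FPKM in PEFs and 13.8, 13.6 and 13.3 in piPSCs (log2 fold change -2.05, limma adjusted p = 0.000246), with little spread in either group. GAB1, a docking protein, had a log2 fold change of 1.24, and IRS2, an insulin receptor substrate, one of -1.04. IRS2 lost its call when any line was left out, without piPSC8 and under quantile normalization. GAB1 lost its call without line 5 or line 7 and, at 0.99, under the median ratio. IRS1, the other main substrate, had 10.0, 6.72 and 5.39 FPKM against 10.6, 7.85 and 4.49.

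Downstream, 25 genes of the PI3K, AKT, mTOR and FOXO pathway were tested, 2 were called higher and 1 lower, and 22 were not called, beside 63.2% of all tested genes. Their median log2 fold change was 0.26, close to the 0.20 of all tested genes. FOXO4, a transcription factor that AKT keeps out of the nucleus, was lower, with 3.96, 4.05 and 9.50 FPKM in PEFs and 1.05, 1.05 and 0.915 in piPSCs (log2 fold change -1.68, limma adjusted p = 0.00654). EIF4EBP2, a brake on translation that mTOR releases, was higher by 1.21 and RPTOR, the raptor subunit of mTOR complex 1, by 1.01. Both lost the 2-fold size under the median ratio, at 0.95 and 0.78. Both also lost their calls under equal sums and voom, without PEF8, and without line 5 or line 8. RPTOR lost its call under quantile normalization and without piPSC5 or piPSC8 as well. In all, RPTOR kept its call in 9 of 18 alternative fits and EIF4EBP2 in 12 of 18. FOXO1 had 0.85 and was not called. Under the median ratio, equal sums and voom alike, the list had 0 higher and 3 lower genes. PIK3CA (-1.06, -1.24 and -1.30 in that order) and INPPL1 (-1.07, -1.14 and -1.08) then joined FOXO4 as lower. Over all tested genes, 20.2% were lower and 15.1% higher under the median ratio.

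Among 4 RNA-binding regulators of IGF transcripts, IGF2BP3 was higher. It had 2.71, 2.92 and 1.32 FPKM in PEFs and 16.5, 12.0 and 16.8 in piPSCs (log2 fold change 2.30, limma adjusted p = 0.00102). LIN28B had at most 0.0367 FPKM in PEFs and 2.51, 0.281 and 8.90 in piPSCs, and was not called (log2 fold change 1.80, limma adjusted p = 0.0667). That size depends on the pseudocount. With a pseudocount of 0.1 LIN28B was called higher at 4.13 (limma adjusted p = 0.0242), and under voom at 6.09 (limma adjusted p = 0.045). It was also called without piPSC7 and without line 7, at 2.53 each. IGF2BP1 was seen mainly in line 8, with 3.06 FPKM in PEF8 and 7.38 in piPSC8. Over the 4 lists, 12 genes were called lower and 5 higher, or 15 and 2 under the median ratio. The same rescaling moved the shares over all tested genes from 16.7% lower and 20.2% higher to 20.2% lower and 15.1% higher.

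**Figure D4:**
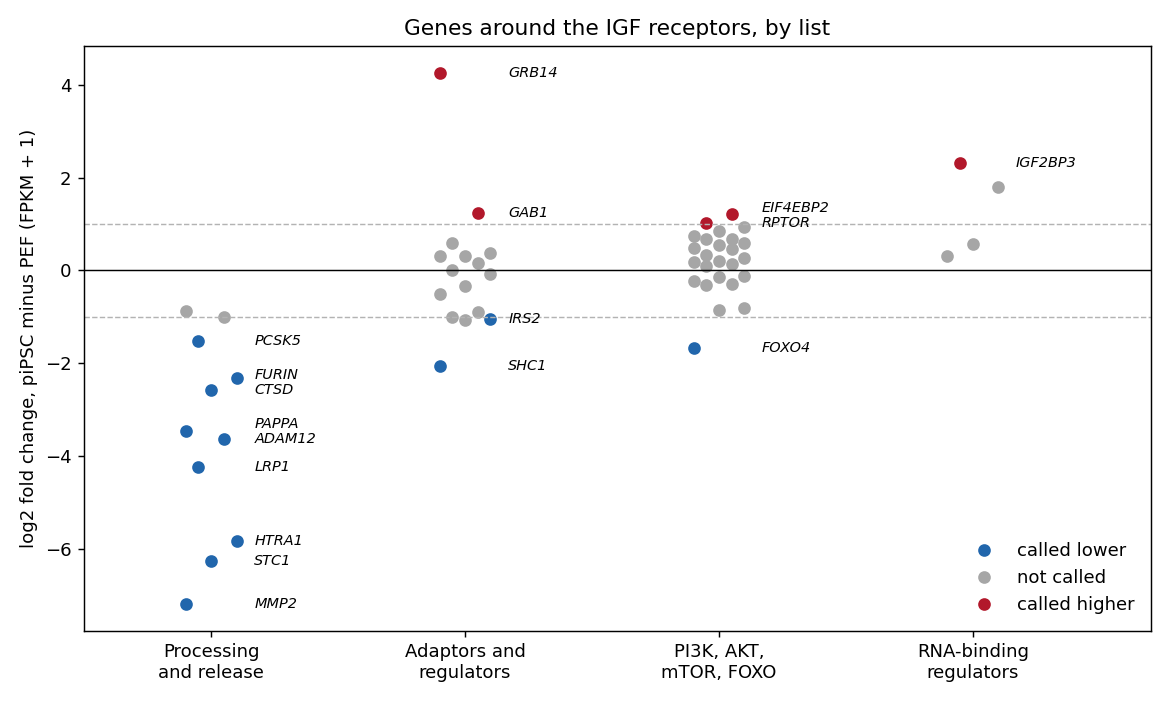
Log2 fold change of piPSCs against PEFs for each tested gene of the 4 pathway lists, with called genes coloured and named, and dashed lines at 2-fold. The processing and release genes lie mostly below 0, the other lists around it, with GRB14 highest.

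Family members outside the set were near or at 0. IGFALS, the acid-labile subunit of the serum complex, had 0 to 0.811 FPKM, IGFBP1, a liver product, 0 to 0.193, INSRR, an orphan relative of the insulin receptor, 0 to 0.153, and IGFBPL1 0 to 0.0573. None reached the mean of 0.5 FPKM needed for a test.

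The genes most like the members were sought by Pearson correlation of log2(FPKM + 1) over the 6 libraries, among 11382 genes. Closest to the mean of the 6 binding protein genes were MMP14, a membrane collagenase, and TIMP3, a matrix-bound inhibitor of metalloproteases (both r = 0.997), followed by DNM1 (0.996), MYPOP (0.995) and ZSWIM8 (0.995). MMP14 had 307, 691 and 620 FPKM in PEFs and 24.8, 3.87 and 5.38 in piPSCs. Closest to IGF1R were CAB39 (0.984) and HDAC4 (0.974), to IGF2R KLHDC2 (0.979) and CCDC91 (0.972), and to INSR MDGA1 (0.986) and UPK1B (0.979). The 6 points fall into the PEF and piPSC groups, so that for the binding proteins r mostly gives the difference between them, and the best of many genes is given here as a description.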

How the data were processed

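RNA of 3 PEF lines and 3 piPSC lines was read from both ends over 150 bases, 1 library per line. The authors deposited 1 table of FPKM values per gene. HISAT2 2.1.0, Bowtie2 2.2.3, HTSeq 0.6.0 and the build Sscrofa11.1 are listed in the submitters' processing notes without roles, and the annotation release and the treatment of shared fragments are not given in the sources used here. The kit is described without a strand-marking step.

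Fragments were recovered from the FPKM steps as the fewest whole numbers that fit a gene, for 18007 genes, so a factor common to all 6 libraries is lost. Tested on simulated data, 459 of 487 genes returned their exact fragments. Genes with a mean of at least 0.5 FPKM (12428) were fitted as log2(FPKM + 1) with limma 3.58.1 in R 4.3.3 (trend, not robust), unpaired, two-sided, with Benjamini-Hochberg adjustment over all of them, and called with an adjusted p below 0.05 and a change of 2-fold or more. On simulated data for the 12428 genes of this comparison, 175 of 200 changed genes were called, and 8 others. The simulation gave every gene the same spread between lines and made only large changes. It also changed few genes, while 36.8% were called in the data. These counts therefore check the code and do not give the power or the false calls of this comparison. Sums and ratios were compared by exact permutation tests in Python 3.11.15 with scipy 1.17.1. A count of 0 was taken to allow 3 fragments.

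The numbers pair the samples, since PEFs and piPSCs of 1 number share an embryo. Deviations of same-numbered libraries correlated at 0.0921, 0.0946 and 0.08, and those of other numbers between -0.121 and 0.0553. The fit with this block is an alternative, as are a pseudocount of 0.1, no filter or a mean of at least 1 FPKM, no trend, quantile normalization, rescaling to the median ratio or equal sums, voom on recovered fragments, and each library left out. Leaving out each line was added after the values were seen.

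The members, the pathway lists and the marker lists (fibroblast, pluripotent, keratinocyte, chondrocyte, endothelial, blood, skeletal muscle, hepatocyte-type and Y-linked) were chosen with earlier results of these data known. Named were all members, up to 6 called genes of each pathway list by size, and the genes most like the members. Other genes, such as STC2, PCSK6, FURIN, CTSD, PCSK5, IRS1, FOXO1, PIK3CA, INPPL1, LIN28B and IGF2BP1, were chosen after their values were seen. Promoter windows were read from the Sscrofa11.1 genome before the starts in the deposited table, for IGFBP3 also before the RefSeq start, with exons from RefSeq.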

Additional observations from a re-analysis of the deposited data

How the results depend on the processing

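The replicate block, which pairs each piPSC line with its PEF line, left 6 members lower and 0 higher, with 2023 genes lower and 2462 higher over all genes, and changed no other call of a member. For the summed binding proteins the paired difference was -4.06 (log2) and the smallest p that 3 pairs allow is 0.25. With 1 library left out, the count of members called lower stayed at 6, and with a whole line left out it was 5 or 6. Leaving out libraries or lines gave between 2 and 7 pathway genes called higher, 1307 to 2075 genes called lower over all genes (the lowest without line 5), -0.31 to 0.37 for the difference in log2 INSR to IGF1R (0.07 without PEF5, 0.24 without piPSC5, 0.37 without line 5) and -0.079 (without line 5) to 0.75 for IGF2R to INSR. Higher pathway genes numbered 3 under equal sums and 2 under the median ratio, since a scaling shifts all genes, and 3 without PEF8. Over all genes, equal sums gave 2025 higher and 2928 lower among 13867 genes that then passed the filter, and voom 2149 and 2700. The difference in the summed binding proteins ran from -4.74 to -3.10 over the libraries or lines left out. Depth limits IGF1, GRB14 and the low piPSC values. In piPSC7 and piPSC8, those of IGFBP2, IGFBP4, IGFBP5 and IGFBP6 rest on 18 to 115 fragments, as does that of IGFBP7 in piPSC8 (34), and that of IGFBP6 in piPSC5 rests on 46. Where not stated, the cause of a change with the setting was not tested.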

Other observations

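Marker lists of cell types other than fibroblasts gave small sums. Keratinocyte markers (5 listed) summed to 3.04 to 3.35 FPKM in PEFs and 4.74 to 9.12 in piPSCs, chondrocyte markers (7) to 1.09 to 12.5 and 0.535 to 4.43, and endothelial markers (6) to 0.646 to 2.71 and 0.0382 to 1.19. Blood markers (4) summed to 10.4 to 22.8 FPKM in PEFs and 1.10 to 3.26 in piPSCs, nearly all from CD14 in PEFs. Skeletal muscle markers (4) summed to 0.0814 to 0.755 and 0.199 to 14.2, the highest from DES in piPSC7, and hepatocyte-type markers (6) to 0.649 to 3.24 and 0.599 to 1.53. CD14 and SOX9 were called lower in piPSCs, with log2 fold changes of -3.64 and -1.51 (limma adjusted p = 0.000435 and 0.0342), and no gene of these lists was called higher.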
